A study of Mus musculus with 20 samples.

Results

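Hapln1, Mcf2, Amigo2, C1ql3, Cacng3 and Lmo3 are 6 protein-coding genes among the 55401 genes in the count table, and they were picked by their rank in 1 measured difference, higher RNA with shA4 than with shSCR in the cerebellum of SCA7 mice. All 6 were found in the table and passed the filter on low counts. The values that selected them, the difference between SCA7 mice with shA4 and SCA7 mice with shSCR, are therefore given below as a description and not tested. RNA was sequenced from the cerebellum of 20 C57BL/6J mice, with 1 mouse per library. At 25 weeks, 5 SCA7 140Q/5Q knock-in mice had received AAV PHP.eB-shA4, 5 SCA7 140Q/5Q knock-in mice had received the same vector with the scrambled hairpin shSCR, and 4 WT mice were untreated. At 9 weeks, 3 WT mice had received AAV PHP.eB-shA4 and 3 WT mice were untreated. Weeks are those of the labels, which do not say whether they count age or time after injection, and since the study gives weeks after injection that differ from the label for the SCA7 mice, the ages are not settled here. The vector was injected behind the eye, also carries an eGFP reporter, and reaches many brain regions besides the cerebellum, and untreated mice were given saline according to the methods. The knock-in mice carry an expanded CAG repeat in 1 copy of Atxn7, and shA4 was designed to lower protein made from expanded CAG repeats. No WT mice with shSCR and no untreated SCA7 mice were analysed here, so that the knock-in allele and the vector cannot be told apart in a comparison of SCA7 with WT mice. The methods state that sexes were not mixed within a treatment group. A figure legend of the study gives the 5 SCA7 mice with shSCR and the 4 WT mice compared with them as males. The SCA7 mice weighed after shA4 were males too, and the sex of the 9-week mice was not found in the sources used here.

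The genes encode proteins that act at or near synapses, with 1 exception in the nucleus. Hapln1 is a link protein that fastens proteoglycans to hyaluronan in perineuronal nets, the dense matrix around some neurons, which is prominent around the large projection neurons of the cerebellar nuclei. Mcf2 (also called Dbl) is a guanine nucleotide exchange factor that switches on small GTPases that act on the actin cytoskeleton, and Amigo2 is a leucine-rich repeat adhesion molecule of the cell surface. C1ql3 is a secreted C1q-like ligand of the adhesion receptor Adgrb3, and belongs to the same protein superfamily as the cerebellins that organise parallel fibre synapses. Cacng3 is an auxiliary subunit of AMPA receptors (a TARP), and Lmo3 is a LIM-only protein of the nucleus that works as a transcriptional cofactor.

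Because shA4 is aimed at CAG repeats, the longest CAG run in any annotated transcript of each gene was read from GENCODE M21 (build GRCm38). The run is 3 CAG in Mcf2, 2 in Hapln1, C1ql3, Cacng3 and Lmo3, and 1 in Amigo2. Of 21951 protein-coding genes, 80.8% hold a run of at least 2, 14.8% a run of at least 3 and 0.952% a run of at least 6, so that none of the 6 genes stands out by the length of its run. The 30 bases around each run are shown 5′ to 3′ on the strand of the transcript, with the run in capitals. The window of Hapln1 lies at chr13:89584683-89584712 (plus strand) in a transcript with no annotated coding region, that of Mcf2 is spliced from exons 25 and 26 of 28 within chrX:60062220-60063120 (minus strand, coding), and that of Amigo2 is at chr15:97246467-97246496 (minus strand, coding). The window of C1ql3 lies in the 5′ UTR at chr2:13011264-13011293 (minus strand), that of Cacng3 in coding exon 1 at chr7:122671911-122671940 (plus strand), and that of Lmo3 in the 3′ UTR at chr6:138365919-138365948 (minus strand).
Hapln1: atgtgatccttaCAGCAGagaagagtctga
Mcf2: acttttccccCAGCAGCAGaatgccgagct
Amigo2: tcaaaccgggttgCAGagagctgctgtgtc
C1ql3: gtcgatcacgggCAGCAGcggcataaaagt
Cacng3: tgacaatgaaacCAGCAGgaagaatgaaga
Lmo3: ccgctgagcccgCAGCAGcgtctccccaac

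Libraries held between 31465586 and 54570503 counts on genes, and levels are given as CPM, counts scaled to a common library total with TMM over all 20 libraries. Atxn7 RNA, checked first, differed little between SCA7 mice with shA4 (44.4 to 51.7 CPM) and with shSCR (45.6 to 53.4 CPM), with a log2 fold change of -0.04 (SE 0.046, adjusted p = 0.842, edgeR). Of 15 Purkinje cell markers, 14 passed adjusted p lower in SCA7 than in WT mice and 10 of these also passed the fold limit of 1.3. The pair of libraries that stood apart were WT mouse 1 at 25 weeks and SCA7 shA4 mouse 1. Their summed level of 12 genes marking midbrain and thalamus was 117 and 110 CPM, against 27.8 to 54.4 CPM in the other 18 libraries. Tcf7l2, a transcription factor of thalamic neurons, was at 66.8 and 58.7 CPM in them and at 4.07 to 23.3 CPM elsewhere. Of the 12 genes, 8 in the WT library and 9 in the SCA7 library were above every other mouse of their group. Of the 15095 genes passing the filter, 27.6% and 20.3% were. Otx2 (14.9 to 27.6 CPM) and Lef1 (3.96 to 7.06 CPM) were detected in every library at similar levels. Gbx2 stayed at or under 0.227 CPM in all libraries. Choroid plexus markers were high in only 1 of the libraries that stood apart, at 3350 CPM in the SCA7 mouse (3.49 times the mean of the rest of its group) and 1170 CPM in the WT mouse (0.521 times). These markers varied widely over all 20 libraries, from 37.7 CPM in SCA7 shA4 mouse 2 to 3900 CPM in WT mouse 4 at 25 weeks. Results that rest on the libraries that stood apart are given with and without them below, an alternative chosen after seeing the data.

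Hapln1 (ENSMUSG00000021613, chr13:89539796-89611652, plus strand) was measured at 8.68, 4.96, 5.34 and 4.98 CPM in the WT mice at 25 weeks. It was at 3.24, 3.88, 4.76, 3.77 and 4.70 CPM in SCA7 mice with shSCR, and at 10.2, 5.86, 8.32, 5.78 and 5.70 CPM in SCA7 mice with shA4. Every shA4 mouse was thus above every shSCR mouse, and every shSCR mouse was below every WT mouse. At 9 weeks it was at 8.61, 7.63 and 7.79 CPM in WT mice with shA4 and at 5.94, 6.46 and 6.18 CPM in untreated WT mice, again without overlap. Mean ± SD was 7.17 ± 2.02 CPM (n = 5) with shA4, 4.07 ± 0.649 (n = 5) with shSCR and 5.99 ± 1.80 (n = 4) in WT mice at 25 weeks. Without the libraries that stood apart, the range was 5.70 to 8.32 CPM with shA4 and 4.96 to 5.34 CPM in WT mice, so that both groups remained above all shSCR mice.

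Mcf2 (ENSMUSG00000031139, chrX:60055956-60179089, minus strand) was the lowest of the 6 genes per kb of median transcript length, an order that depends on the length taken. Its levels were 6.02, 3.98, 3.37 and 3.84 CPM in WT mice at 25 weeks, 2.63, 2.38, 2.63, 1.97 and 2.61 CPM with shSCR, and 5.15, 3.34, 4.12, 3.17 and 3.91 CPM with shA4. The shSCR mice were below all mice of both other groups, and the shA4 and WT mice overlapped. At 9 weeks it was at 4.10, 2.79 and 2.92 CPM with shA4 and at 3.72, 3.18 and 2.98 CPM without, with overlap. Mean ± SD was 3.94 ± 0.781 (n = 5) with shA4, 2.44 ± 0.284 (n = 5) with shSCR and 4.30 ± 1.17 CPM (n = 4) in WT mice at 25 weeks.

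Amigo2 (ENSMUSG00000048218, chr15:97244125-97247287, minus strand) was at 27.4, 22.7, 22.9 and 24.2 CPM in WT mice at 25 weeks, at 18.3, 16.9, 20.6, 17.8 and 23.3 CPM with shSCR, and at 27.8, 27.1, 24.2, 28.1 and 21.4 CPM with shA4. Here shSCR mouse 5 lay above shA4 mouse 5, so that the SCA7 groups overlapped by these mice. The 9-week levels were 25.7, 24.9 and 25.6 CPM with shA4 and 19.6, 21.7 and 19.6 CPM in untreated WT mice, without overlap and with an SD of 0.449 and 1.20 CPM. Amigo2 shares genomic sequence with Pced1b on the opposite strand, which had 2445 counts over the 20 libraries, and whether reads were counted by strand is not given in the sources used here.

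C1ql3 (ENSMUSG00000049630, chr2:13003457-13011806, minus strand) was at 11.7, 10.7, 12.4 and 11.8 CPM in WT mice at 25 weeks, at 10.2, 9.74, 11.1, 7.46 and 9.19 CPM with shSCR, and at 10.9, 14.6, 14.5, 14.1 and 16.1 CPM with shA4. The lowest of the shA4 mice was mouse 1, the library that stood apart, which overlapped with the shSCR group, and the other 4 were above every shSCR and every WT mouse. C1ql3 was the only member for which that library was low, at 0.735 times the mean of the others. At 9 weeks the levels were 12.4, 11.2 and 10.7 CPM with shA4 and 11.5, 8.77 and 8.51 CPM without, with overlap.

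Cacng3 (ENSMUSG00000066189, chr7:122670492-122769393, plus strand) was at 15.8, 10.6, 10.8 and 10.2 CPM in WT mice at 25 weeks, at 6.02, 7.08, 6.63, 5.51 and 8.40 CPM with shSCR, and at 13.1, 9.07, 10.1, 8.76 and 10.1 CPM with shA4. The shSCR mice were below all others of this age. WT mice at 9 weeks had 11.5, 10.7 and 12.8 CPM with shA4 and 10.5, 13.3 and 11.3 CPM without, with full overlap. The shSCR mice were also below all 6 mice of the 9-week cohort, as they were for Hapln1, Mcf2 and Lmo3. These cohorts differ in genotype, treatment and label week, and the shSCR mice were used to pick the genes. The share of all genes with this pattern was not taken, so that it is a description only.

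Lmo3 (ENSMUSG00000030226, chr6:138362918-138581968, minus strand) was at 5.63, 2.34, 2.51 and 2.30 CPM in WT mice at 25 weeks, at 2.15, 1.78, 2.36, 1.51 and 2.03 CPM with shSCR, and at 6.53, 3.06, 3.42, 2.83 and 3.63 CPM with shA4. All shA4 mice were above all shSCR mice, while shSCR mouse 3 was above WT mice 2 and 4. Lmo3 had the widest spread of the 6 genes in each 25-week group (coefficient of variation 16.8% to 50.9%), with mouse 1 at 2.36 times the mean of the other WT mice and at 2.02 times that of the other shA4 mice. At 9 weeks it was at 3.26, 2.42 and 2.61 CPM with shA4 and at 2.69, 3.39 and 2.85 CPM without, where its spread was not the widest.

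**Figure D1:**
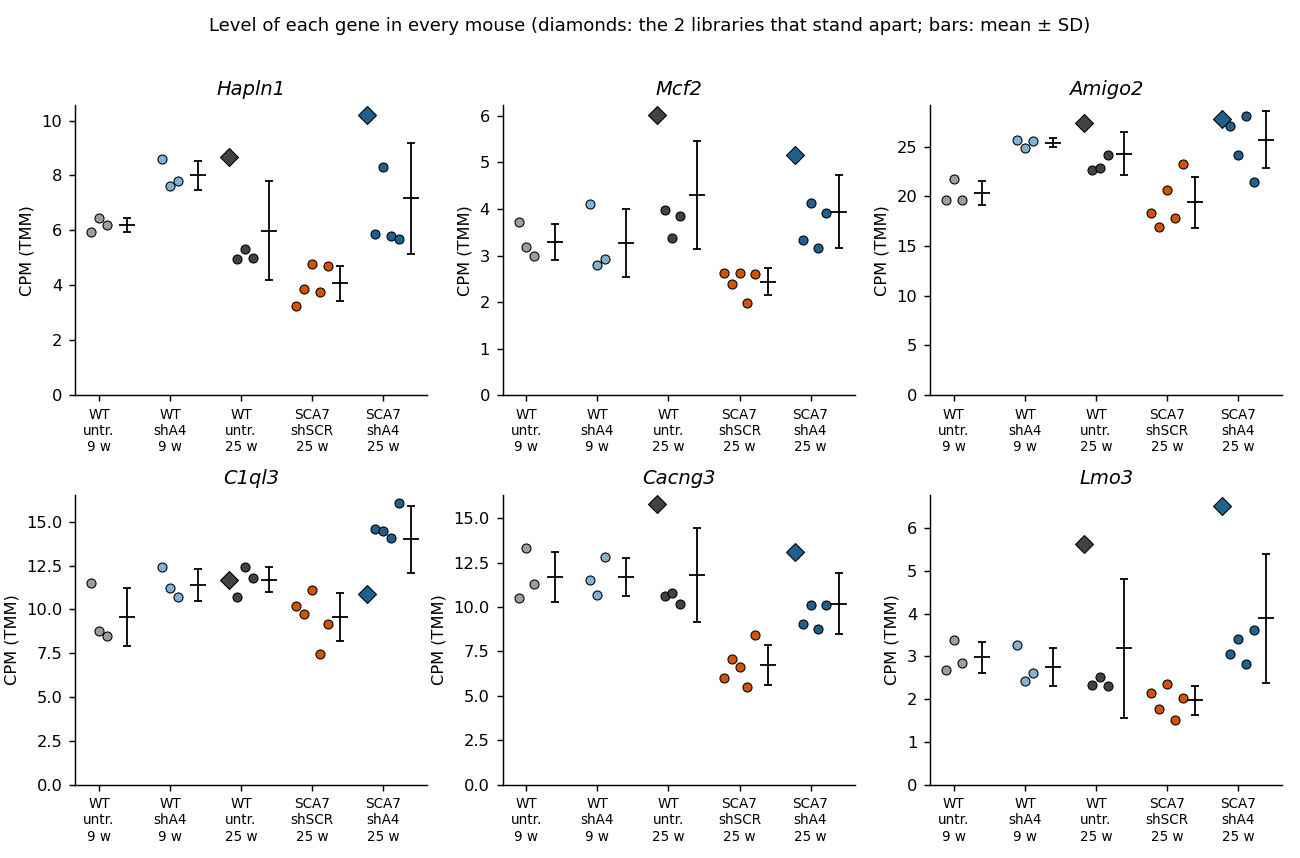
Level of each gene (CPM, vertical axes) in every mouse of the 5 groups, with 1 point per mouse, diamonds for the libraries that stood apart, and the group mean ± SD. In SCA7 mice at 25 weeks the shA4 points of Hapln1, Mcf2, Cacng3 and Lmo3 lie above all shSCR points, while those of Amigo2 and C1ql3 overlap by 1 mouse of the shA4 group.

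Divided by the median transcript length, the levels in WT mice at 25 weeks were 13.0 CPM per kb for Cacng3, 8.37 for Amigo2, 4.60 for C1ql3, 2.68 for Lmo3, 1.94 for Hapln1 and 1.17 for Mcf2. The median is short for Cacng3 (0.91 kb) and Lmo3 (1.19 kb), which also have annotated transcripts of 2777 and 3664 bases. With such lengths both would take lower places, so that the order holds for the median length only. The order was the same in the untreated 9-week mice and in both SCA7 groups. Only in 9-week WT mice with shA4 did Hapln1 (2.59 CPM per kb) lie above Lmo3 (2.32). Neighbours in this order overlapped between mice for Lmo3 and Hapln1 in each group except the untreated 9-week mice. Overlap was also seen for Cacng3 and Amigo2 in both SCA7 groups, for C1ql3 and Lmo3 in WT mice at 25 weeks and SCA7 mice with shA4, and for Hapln1 and Mcf2 in WT mice at 25 weeks.

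The comparison that picked the genes, SCA7 mice with shA4 against shSCR, gave log2 fold changes of 0.99 (SE 0.27) for Lmo3, 0.82 (SE 0.19) for Hapln1, 0.69 (SE 0.16) for Mcf2, 0.61 (SE 0.14) for Cacng3, 0.55 (SE 0.11) for C1ql3 and 0.41 (SE 0.091) for Amigo2. These correspond to 1.98-, 1.76-, 1.61-, 1.52-, 1.47- and 1.33-fold higher levels. Of the 14862 genes tested, edgeR's quasi-likelihood test called none at an adjusted p under 0.05 with a fold above 1.3 (0.0%), and 1222 genes were under an unadjusted p of 0.05. DESeq2 called 5 genes, all of them members, which picking on this comparison favours and which is no test of them. Of all genes 4.24% were higher with shA4 at an unadjusted p under 0.05, as all 6 members were by the way they were chosen. Among the 7448 genes with a higher estimate, the members took places 2 (C1ql3), 7 (Amigo2), 13 (Cacng3), 14 (Hapln1), 18 (Mcf2) and 30 (Lmo3) by p. Just below the lowest fold change of a member, Nrg1 had 0.37 (SE 0.091) among the 22 genes with an unadjusted p under 0.001. Every shA4 mouse was above every shSCR mouse for 4 of the 6 members and for 0.774% of all genes tested. Without both libraries that stood apart the log2 fold changes were 0.72 (SE 0.13) for Lmo3, 0.65 (SE 0.13) for Hapln1, 0.63 (SE 0.093) for C1ql3, 0.57 (SE 0.12) for Mcf2, 0.50 (SE 0.10) for Cacng3 and 0.38 (SE 0.09) for Amigo2, given as a description like the values above.

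Whether the 6 genes differ between SCA7 and WT mice at 25 weeks was tested on the mean of both SCA7 groups, which, with 5 mice in each, is uncorrelated with the difference used to pick the genes where both groups vary alike. Their spread was unequal for some members (Lmo3, SD 1.51 against 0.33 CPM), and picking by p also favours a small spread, so that the independence is not complete. Cacng3 fell by 0.52 on the log2 scale (SE 0.13, adjusted p = 0.00892, edgeR) and Mcf2 fell by 0.47 (SE 0.15, adjusted p = 0.0325, edgeR). These were the 2 members called lower, beside 2.63% of all genes called lower and 4.02% called in either direction. The log2 fold changes of the other members were -0.21 for Lmo3, -0.15 for Hapln1, -0.12 for Amigo2 and -0.01 for C1ql3, with adjusted p between 0.35 and 0.955 (edgeR). Without both libraries that stood apart, a fit of 4 against 5 SCA7 mice, Cacng3 remained called at -0.39 (SE 0.097, adjusted p = 0.0103, edgeR) and Mcf2 did not, at -0.32 (SE 0.11, adjusted p = 0.0688, edgeR). The Cacng3 call was lost when WT mouse 1 alone was left out, at -0.34 (adjusted p = 0.06, edgeR). The Mcf2 call was lost without WT mouse 1 (-0.26, adjusted p = 0.218), without WT mouse 2 (-0.51, adjusted p = 0.0512) and without shSCR mouse 4 (-0.44, adjusted p = 0.0537). In bulk RNA, fewer cells of a type and less RNA per cell cannot be told apart.

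Set side by side, the mean of the shSCR mice was below that of the WT mice for all 6 genes and that of the shA4 mice above it for 4. These comparisons share the WT mice, and each holds mice that were used to pick the genes, so that the values are a description. With shSCR the log2 fold changes against WT mice were -0.82 for Mcf2 and Cacng3, -0.71 for Lmo3, -0.56 for Hapln1, -0.33 for Amigo2 and -0.29 for C1ql3. With shA4 they were 0.28 for Lmo3, 0.26 for C1ql3, 0.25 for Hapln1, 0.08 for Amigo2, -0.13 for Mcf2 and -0.21 for Cacng3. For Hapln1, Mcf2 and Cacng3 every shSCR mouse was below every WT mouse, as for 9.33% of all genes. Without both libraries that stood apart the shSCR values were -0.61 for Mcf2, -0.64 for Cacng3, -0.27 for Lmo3, -0.32 for Hapln1, -0.26 for Amigo2 and -0.29 for C1ql3, so that the difference of Lmo3 shrank most. The shA4 values then were 0.44 for Lmo3, 0.35 for C1ql3, 0.33 for Hapln1, 0.12 for Amigo2, -0.03 for Mcf2 and -0.14 for Cacng3.

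**Figure D2:**
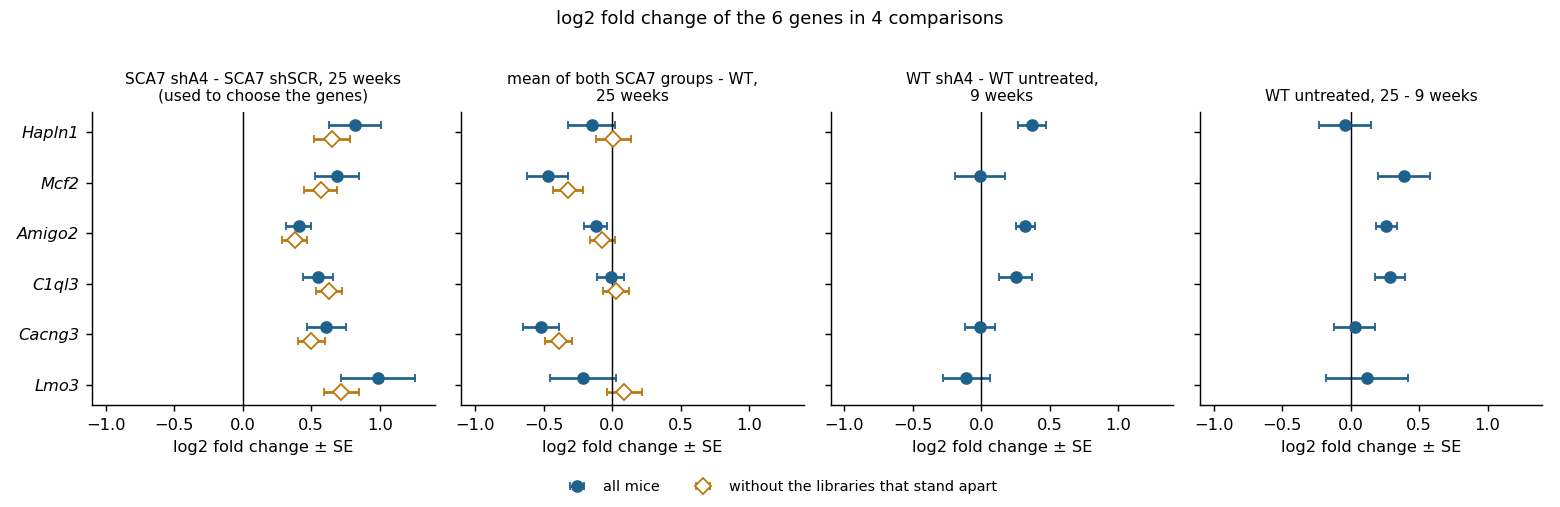
Log2 fold change (horizontal axes, bars show the SE) of the 6 genes in 4 comparisons with all mice (filled circles) and, in the 25-week comparisons, without both libraries that stood apart (open diamonds). The shA4 against shSCR values, which picked the genes, are positive for all 6, and the test on the mean of both SCA7 groups gave a negative value called for Mcf2 and Cacng3.

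The 9-week WT mice had no part in picking the genes, and 3 of them received the same hairpin. The others were untreated and no WT mice had shSCR, so that the hairpin and the vector cannot be told apart here. With edgeR none of the 6 genes passed adjusted p there, as 0.0679% of 14733 genes did, and 8 genes (0.0543%) were called. With DESeq2 Amigo2 passed adjusted p (0.0251), below the fold limit, beside 0.882% of all genes. Hapln1 was higher with shA4 by 0.37 on the log2 scale (SE 0.10, adjusted p = 0.264, edgeR) and Amigo2 by 0.32 (SE 0.069, adjusted p = 0.16, edgeR). Both had every shA4 mouse above every untreated mouse, as did 7.52% of all genes in this comparison. With 3 against 3 mice the exact two-sided permutation test cannot go below p = 0.1, the value it gave for each of these genes. C1ql3 had 0.25 (SE 0.12, adjusted p = 0.475), and Mcf2 (-0.01, SE 0.18), Cacng3 (-0.01, SE 0.11) and Lmo3 (-0.11, SE 0.17) had estimates within 1 SE of 0. The shA4 mice of this cohort had summed midbrain and thalamus markers of 43.9 to 51.9 CPM, and the untreated mice of 30.2 to 54.4 CPM, and their part in these values was not tested.

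Between untreated WT mice labelled 25 and 9 weeks, where 5.14% of 14875 genes were called, none of the 6 genes was. Amigo2 passed adjusted p at 0.26 (SE 0.076, adjusted p = 0.0337, edgeR), below the fold limit, with all 25-week mice above all 9-week mice, as for 16.7% of all genes. Log2 fold changes were 0.39 (SE 0.19) for Mcf2, 0.29 (SE 0.11, adjusted p = 0.086, edgeR) for C1ql3, 0.12 (SE 0.30) for Lmo3, 0.03 (SE 0.15) for Cacng3 and -0.04 (SE 0.19) for Hapln1. Without untreated 9-week mouse 1, C1ql3 was called at 0.44 (adjusted p = 0.0149, edgeR). Age, cohort and preparation cannot be told apart here, and the weeks may not be ages.

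Co-variation was asked within groups, on the deviation of each mouse from the mean of its group on the scale of log2 (CPM + 0.1), which does not hold the difference that picked the genes. Hapln1, Mcf2, Cacng3 and Lmo3 deviated together, and all 6 pairs among them passed a two-sided permutation test over 20 mice with adjustment over the 15 pairs. The closest pair was Mcf2 and Lmo3, with Pearson's r = 0.86 (permutation p = 0.00061, adjusted p = 0.00915) and Spearman's rho = 0.79 (adjusted permutation p = 0.00675). Cacng3 and Lmo3 had r = 0.82 (permutation p = 0.00251, adjusted p = 0.0126) and rho = 0.79 (adjusted permutation p = 0.00675). Hapln1 had r = 0.82 with Lmo3 (permutation p = 0.00455, adjusted p = 0.0153; rho = 0.66, adjusted p = 0.0491), 0.80 with Cacng3 (p = 0.00211, adjusted p = 0.0126; rho = 0.72, adjusted p = 0.0243) and 0.73 with Mcf2 (p = 0.00509, adjusted p = 0.0153; rho = 0.56, adjusted p = 0.059). Mcf2 and Cacng3 had r = 0.67 (permutation p = 0.00876, adjusted p = 0.0219) and rho = 0.57 (adjusted permutation p = 0.059). These relations rest in large part on the libraries that stood apart, which were for each of the 6 pairs the mice farthest from the median. Without them r was 0.68 for Mcf2 and Lmo3, 0.52 for Hapln1 and Cacng3, 0.51 for Cacng3 and Lmo3, 0.40 for Hapln1 and Lmo3, 0.36 for Hapln1 and Mcf2 and 0.28 for Mcf2 and Cacng3, and 0 of the 15 pairs passed. Leaving out either SCA7 shA4 mouse 1 or WT mouse 1 at 25 weeks left 1 pair passing.

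The same 6 pairs had r between 0.80 and 0.93 over the 14 mice of 25 weeks. Over the 6 mice of 9 weeks they ranged from -0.19 for Mcf2 and Cacng3 to 0.98 for Hapln1 and Lmo3. C1ql3 did not deviate with the others over 20 mice, with r from -0.25 to 0.13. Without both libraries that stood apart, its r was 0.63 with Mcf2 and 0.53 with Lmo3, neither passing the adjusted test. Amigo2 had r of 0.32 with Mcf2, 0.45 with Lmo3, 0.51 with Cacng3 and 0.53 with Hapln1, with adjusted permutation p of at least 0.112.

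**Figure D3:**
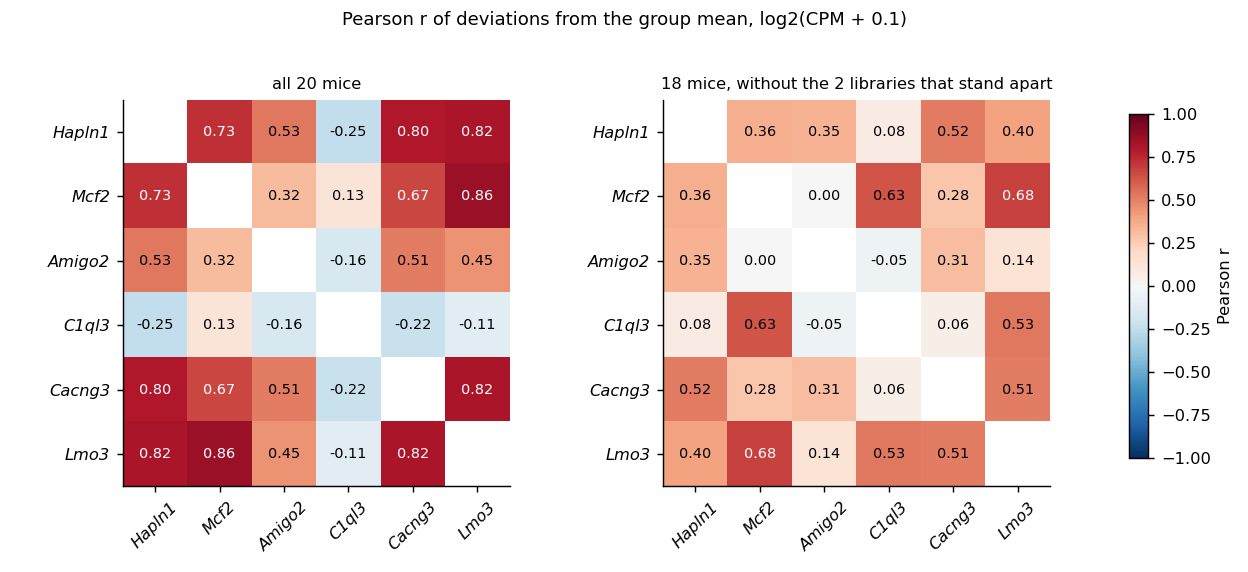
Pearson r between the within-group deviations of each pair of genes, over all 20 mice (left) and over 18 mice without the libraries that stood apart (right), with the colour scale running from -1 to 1. The block formed by Hapln1, Mcf2, Cacng3 and Lmo3 has r of 0.67 to 0.86 on the left and 0.28 to 0.68 on the right.

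In the libraries that stood apart, the same 4 genes were high. In WT mouse 1 at 25 weeks they were 1.70 (Hapln1), 1.61 (Mcf2), 1.5 (Cacng3) and 2.36 (Lmo3) times the mean of the rest of the group, and in SCA7 shA4 mouse 1 they were 1.59, 1.42, 1.38 and 2.02 times. Amigo2 was 1.18 and 1.1 times the rest, and C1ql3 1.01 and 0.735 times. The WT library was the highest of its group for 5 of the 6 genes, beside 27.6% of 15095 genes. The SCA7 library was highest for 4, beside 20.3%. This was not particular to them, since shSCR mouse 3 was highest for 4 (19.3% of all genes). In the 9-week groups of 3 mice, where the share is larger, WT shA4 mouse 1 was highest for 5 (31.5%) and untreated mouse 2 for 4 (32.3%). In the libraries that stood apart, Slc17a6, the vesicular glutamate transporter of subcortical neurons, was at 80.2 and 74.5 CPM. Lhx9, a LIM homeodomain factor, was at 17.4 and 18.4 CPM. Both were picked from the list of 10 marker genes of the cerebellar nuclei described below, which did not rise as a whole to this extent. Its summed level was 1.26 times the rest of the group in the WT library and 1.05 times in the SCA7 library. Of its genes, 7 in the WT library and 3 in the SCA7 library were above every other mouse of their group, beside 27.6% and 20.3% of all genes. Without these libraries, Slc17a6 ranged from 17.3 to 22.6 CPM in WT mice at 25 weeks and from 14.4 to 19.3 CPM with shSCR. It was up to 31.1 CPM with shA4, with the lowest mouse above every shSCR mouse, so that the SCA7 groups did not overlap. Summed midbrain and thalamus markers then were 28.5 to 36.8 CPM with shA4 and up to 39.5 CPM with shSCR, and the groups overlapped. Most of this sum was Otx2, at a mean of 18.1 CPM with shA4 and 21.7 CPM with shSCR. Since Otx2 was at similar levels in every library, the overlap says little about how much of this tissue was held. Tcf7l2 was at 6.6 to 11.7 CPM with shA4 and 4.07 to 6.7 CPM with shSCR, also with overlap.

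**Figure D4:**
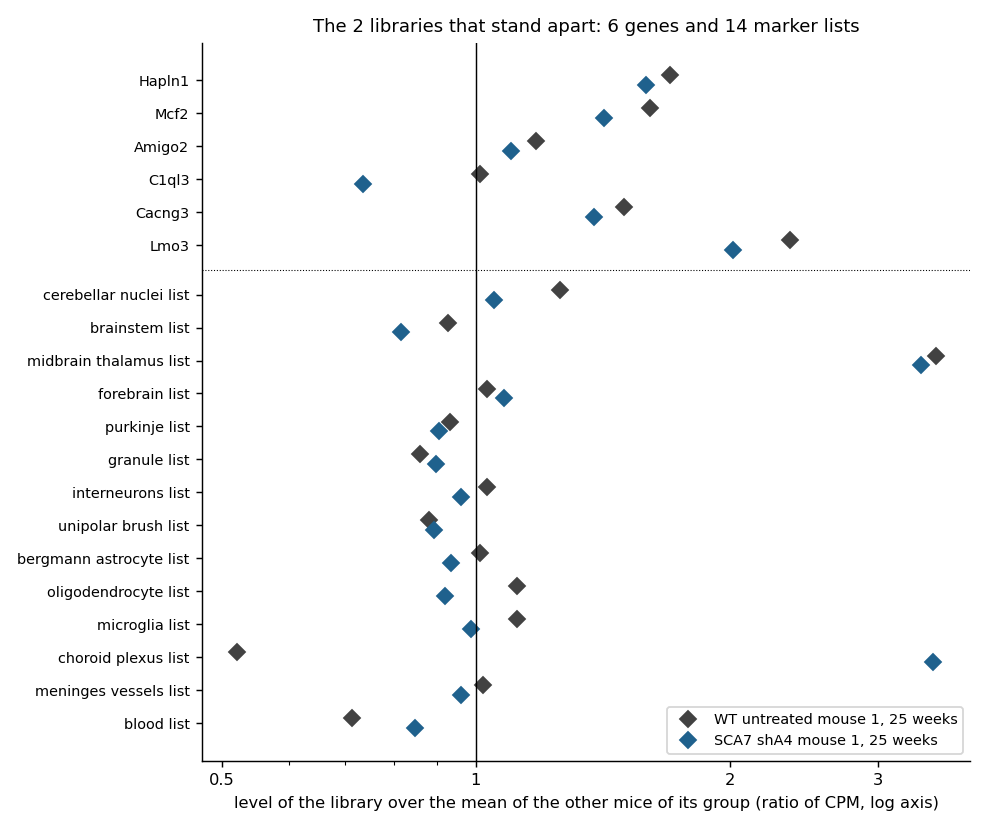
Level in the library that stood apart divided by the mean of the other mice of its group (ratio, horizontal log axis), for each member and for summed marker lists, in WT mouse 1 at 25 weeks and SCA7 shA4 mouse 1. The midbrain and thalamus list is at 3.51 and 3.37 times the rest, Lmo3 at 2.36 and 2.02 times, and C1ql3 at 1.01 and 0.735 times.

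Members were also compared with summed levels of marker genes of the cerebellar nuclei (10 genes, of which Scn4b, Nefh and Nefm are also expressed by Purkinje cells), brainstem (20), midbrain and thalamus (12) and forebrain (18), again as within-group deviations, and 5 of these 24 relations passed. With the midbrain and thalamus list Lmo3 had r = 0.90 (permutation p = 0.00315, adjusted p = 0.0189; rho = 0.71), Cacng3 r = 0.81 (permutation p = 0.00253, adjusted p = 0.0189; rho = 0.69) and Hapln1 r = 0.80 (permutation p = 0.00553, adjusted p = 0.0265; rho = 0.69). The r of Mcf2 was 0.69 (permutation p = 0.0211, adjusted p = 0.0675), that of Amigo2 0.38 and that of C1ql3 -0.36. Without the mice farthest from the median, which were the libraries that stood apart, r fell to 0.40 for Lmo3, 0.47 for Cacng3, 0.26 for Hapln1 and 0.05 for Mcf2, so that these relations rest on those libraries. With the list of the cerebellar nuclei, Lmo3 had r = 0.79 (permutation p = 0.00056, adjusted p = 0.0134; rho = 0.81) and Mcf2 r = 0.73 (permutation p = 0.00312, adjusted p = 0.0189; rho = 0.71). Without the farthest mice these were 0.62 and 0.63. Over the 18 mice without both libraries that stood apart, Lmo3 still passed with r = 0.75 (adjusted permutation p = 0.0122) and Mcf2 had r = 0.55 (adjusted permutation p = 0.25). C1ql3, at 0.38 over all mice, then had r = 0.74. The sign for C1ql3 depended on how the list was summarised. With the list averaged on the log scale, r over all mice was -0.23 for C1ql3, 0.90 for Lmo3 and 0.72 for Mcf2. No relation with the brainstem or forebrain list passed, and 5 of the 20 brainstem genes (Hoxd3, Hoxd4, Chat, Slc18a3 and Isl1) were under 0.1 CPM in every library. In WT mice at 25 weeks Slc6a5, also listed as a marker of cerebellar interneurons, averaged 50.4 CPM, where the median brainstem sum was 58.8 CPM. Ppp1r1b averaged 226 CPM, where the median forebrain sum was 258 CPM. Because each sum mostly follows 1 gene, these results say little about either tissue.

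**Figure D5:**
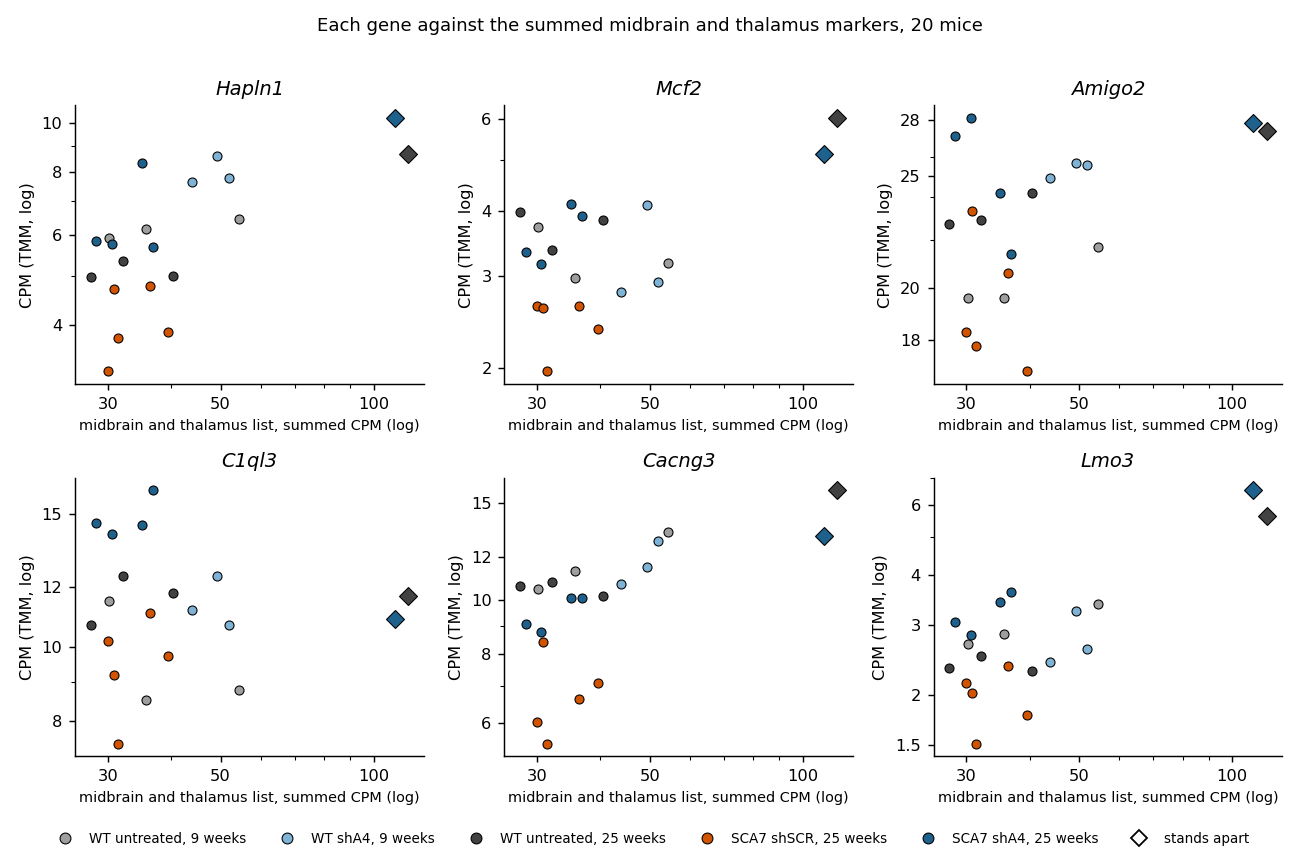
Level of each gene (CPM, vertical log axes) against the summed level of the midbrain and thalamus markers (CPM, horizontal log axes), with 1 point per mouse coloured by group and diamonds for the libraries that stood apart. These lie far to the right, where Lmo3, Cacng3, Hapln1 and Mcf2 are high and C1ql3 is not.

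The summed level of the cerebellar nuclei list differed between the groups that picked the genes. It was 450 to 519 CPM with shSCR and 538 to 617 CPM with shA4, without overlap, against 557 to 740 CPM in WT mice at 25 weeks, of which 740 was the library that stood apart. At 9 weeks it was 562 to 621 CPM with shA4 and 580 to 625 CPM without. Of 9 genes of the list tested between shA4 and shSCR, 7 were higher and 2 lower, none was called, and the median log2 fold change was 0.249 against 0.0 over all genes. Because Scn4b, Nefh and Nefm hold a large part of the sum, it does not measure this tissue alone. Examples are Scn4b, a sodium channel beta subunit that Purkinje cells also express, at 0.28 (SE 0.059, adjusted p = 0.325, edgeR) and Slc17a6 at 1.04 (SE 0.40, adjusted p = 0.54, edgeR). Scn4b also fell by 0.53 between SCA7 and WT mice (SE 0.053, adjusted p = 2.01e-06, edgeR). The part of these genes in the members' difference was not tested.

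The 3 genes whose within-group deviations were most like those of each member were found among 15095 genes, by Pearson's r over 20 mice. For Lmo3 these were Gabra3 (0.96), Resp18 (0.95) and Kcnh5 (0.95), and 261 genes had r above 0.8. For Hapln1 they were Lrrc55 (0.90), Dzank1 (0.89) and Tacr3 (0.89), with 93 genes above 0.8, and for Cacng3 Tacr3 (0.90), Glra4 (0.90) and Tenm3 (0.88), with 58 genes. Mcf2 was followed by Nek7 (0.91), Rab27b (0.91) and Slc35f1 (0.89), with 43 genes above 0.8. Amigo2 had Adcy3 (0.90), Pcdhb4 (0.84) and Trmo (0.83) and 4 genes in all, and C1ql3 had Ina (0.77), Snx24 (0.74) and Esrrg (0.73) and none above 0.8. Without both libraries that stood apart, the number above 0.8 was 3 for Lmo3, 3 for Hapln1, 1 for Cacng3, 12 for Mcf2, 5 for Amigo2 and 4 for C1ql3. The r of Adcy3 with Amigo2 was then 0.89, close to its value over all mice, whereas that of Gabra3 with Lmo3 was 0.79.

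Relatives and partners of the members were described from lists written from general knowledge. In none of the 7 lists did a gene pass adjusted p between shA4 and shSCR or in the 9-week WT mice, and list medians lay between -0.001 and 0.045 in the former. The nearest relatives had log2 fold changes with shA4 against shSCR of 0.02 for the link protein Hapln4, -0.03 for Mcf2l, -0.03 for Amigo1, -0.14 for C1ql1, 0.01 for Cacng2, -0.09 for Lmo1 and 0.01 for Lmo4, none of which passed the test. The largest estimates were those of low and variable genes, with Cbln2, a cerebellin, at 4.09 (SE 1.5, adjusted p = 0.532, edgeR) and 3.06 ± 5.72 CPM (SD, n = 5) with shA4 against 0.179 ± 0.099 CPM (n = 5) with shSCR.

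Between SCA7 and WT mice, 35.4% of the 130 tested genes of these lists passed adjusted p. Of all genes 10.2% passed lower and 7.95% higher, against which each count below is to be read. With the fold limit 4.62% of the list genes and 4.02% of all genes were called. Of 19 AMPA receptor subunits, TARPs and partners, 10 passed adjusted p lower and 2 higher, with a median of -0.106 against 0.005 over all genes. Shisa6, an AMPA receptor auxiliary protein, fell by 0.48 (SE 0.04, adjusted p = 2.49e-07, edgeR), from 263 ± 16.4 CPM (n = 4) in WT mice to 187 ± 5.97 with shSCR and 190 ± 11.4 with shA4 (n = 5 each). Shisa9 fell by 0.40 (SE 0.096, adjusted p = 0.00768, edgeR), and Cacng2, another TARP, had -0.21 (SE 0.031, adjusted p = 0.000156, edgeR), under the fold limit. Of 18 perineuronal net genes tested, 5 passed lower and 1 higher. Hapln4 fell by 0.38 (SE 0.032, adjusted p = 1.98e-07, edgeR), from 210 ± 13.6 CPM in WT mice to 160 ± 4.12 with shSCR and 162 ± 3.12 with shA4, and the hyaluronan synthase Has3 fell by 0.43 (SE 0.11, adjusted p = 0.0137, edgeR). Hapln4 had nearly the same mean level in both SCA7 groups. Hapln1 was picked for its difference between these groups, so that a contrast of the genes on this point follows from the picking.

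Of 16 C1q-like and cerebellin ligands and receptors, 5 passed lower and 1 higher, none past the fold limit, with a median of -0.127. These include the cerebellin Cbln1 at -0.28 (SE 0.05, adjusted p = 0.000909, edgeR). In the 17 LIM-only, LIM homeodomain and partner genes, 3 passed in each direction. The homeodomain factor Lhx5 fell by 0.67 (SE 0.069, adjusted p = 2.59e-06, edgeR) and Gata2 rose by 0.52 (SE 0.12, adjusted p = 0.00743, edgeR). Of 30 exchange factors related to Mcf2, 3 passed higher and 4 lower, among them Kalrn at -0.36 (SE 0.053, adjusted p = 0.000144, edgeR), and of 22 leucine-rich repeat adhesion genes 4 passed in each direction, none of these past the fold limit.

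Between the untreated WT groups labelled 25 and 9 weeks, 7 of the 130 tested genes of these lists were called (5.38%), close to the 5.14% of all genes, and 39 of the 130 passed adjusted p, beside 23.0% of all genes. Adgrb2, a receptor related to that of C1ql3, fell by 0.56 (SE 0.038, adjusted p = 6.3e-05, edgeR), and Cbln1 fell by 0.50 (SE 0.066, adjusted p = 0.00104, edgeR). Chst3, a sulfotransferase of chondroitin chains, fell by 0.61 and Lingo1 by 0.41, while Csgalnact1 rose by 0.47, Shisa7 by 0.42 and Tiam2 by 0.41, with adjusted p between 0.00539 and 0.0457 (edgeR).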

How the data were processed

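Cerebellar RNA of 20 mice was sequenced with 1 cerebellum per library. According to the methods and the submitters' processing notes, the authors trimmed reads with cutadapt 1.10, removed ribosomal reads with Bowtie2 2.2.8, mapped the rest to mm10 with STAR 2.5.3a and counted them on Ensembl 102 genes with HTSeq 0.6.1p1. The deposited values are raw counts per gene, without normalization, and the strand setting is not stated. Genes were matched to GENCODE M21 (55141 of 55401), and the 260 without a match were left out. Groups were taken from the labels. Replicates are separate mice.

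Tests on 21897 protein-coding genes were run with edgeR 4.0.16 and limma 3.58.1 in R 4.3.3 (TMM, filterByExpr with minimum count 10 and minimum total 15, quasi-likelihood test). The 14 mice of 25 weeks, the 6 of 9 weeks and the 7 untreated WT mice were fitted separately, with Benjamini-Hochberg adjustment over all genes tested. Calls required adjusted p below 0.05 together with a change of more than 1.3-fold. SD is between mice. Co-variation used log2 (CPM + 0.1) and 100000 permutations within groups. DESeq2 1.42.0, other scalings and filters, robust estimation, a fit on all genes and leaving out mice were tried as alternatives. Library totals were 31465586 to 54570503 counts, and counts of mice of 1 group differed by more than counting noise (chi-squared per degree of freedom 4.87 to 26.1 in 32 pairs). The lowest members had as few as 52 counts in a library (Lmo3), where counting noise adds to this spread. The methods were tested on simulated data. The members and the gene lists were chosen with earlier results of these data known. The named genes are the 6 members, list genes called in a comparison or else those with the largest estimates, the 3 genes most like each member, and the first gene below the members. Promoter sequences are not reported here. Protein and behavioural data were not analysed here.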

Additional observations from a re-analysis of the deposited data

Results flagged for a closer look

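In groups of 4 or 5 mice, 4 of the 18 gene and group combinations examined had 1 mouse far from the others by Dixon's criterion at the 95% level. Chance flags about 1 in 20 groups. WT mouse 1 at 25 weeks was far above the other 3 mice of its group for Hapln1 (8.68 CPM), Cacng3 (15.8 CPM) and Lmo3 (5.63 CPM). SCA7 shA4 mouse 1 was far above its group for Lmo3 (6.53 CPM). These are the same libraries in which the summed midbrain and thalamus markers reached 117 and 110 CPM, and the part of these markers in the values was not tested.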

How the results depend on the processing

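Of the called members, Cacng3 and Mcf2 kept the direction of their difference between SCA7 and WT mice in every fit that was run. The direction was not kept for other members: without both libraries that stood apart the log2 fold change against WT mice was 0.01 for Hapln1, 0.03 for C1ql3 and 0.09 for Lmo3, and leaving out 1 mouse at a time it ranged from -0.24 to 0.09, from -0.05 to 0.03 and from -0.35 to 0.22. In the 9-week mice it ranged from -0.21 to 0.10 for Mcf2 and from -0.08 to 0.10 for Cacng3, and between the untreated WT groups from -0.28 to 0.04 for Hapln1, from -0.15 to 0.13 for Cacng3 and from -0.32 to 0.25 for Lmo3. The cause was not tested.

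The number of genes called between shA4 and shSCR was 0 with edgeR, 5 with DESeq2 and 1 without both libraries that stood apart. In 9-week WT mice it was 8, against 26 without a filter, 53 with DESeq2, 19 with robust estimation, 16 over all genes and 1 to 43 leaving out 1 mouse at a time, the latter values without shA4 mouse 2 and shA4 mouse 3. Leaving out untreated mouse 2 gave 4 and untreated mouse 3 gave 2. Calls between SCA7 and WT mice were 537 to 660 leaving out 1 mouse, and calls between the untreated WT groups 573 to 804. Pairs of members passing were 1 to 8 of 15 leaving out 1 mouse and 0 without both libraries that stood apart. Relations with tissue markers passing were 10 of 24 when lists were averaged on the log scale, and 2 without those libraries.

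Replicate numbers gave no regular pairing of the mice, with correlations of same-numbered mice from -0.22 to 0.54. The 0.54 was between WT mouse 1 at 25 weeks and SCA7 shA4 mouse 1, the libraries that stood apart. All others were at most 0.26. With the replicate number as a block, 37 genes were called in 9-week WT mice, 569 between SCA7 and WT mice, 525 between the untreated WT groups and 0 between shA4 and shSCR.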
